A study of Mus musculus with 14 samples.

Results

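The genes described are 10 plasma protein genes among the 25212 rows of the count table, the acute phase proteins and lipocalin 2: the serum amyloid A genes *Saa1*, *Saa2*, *Saa3* and *Saa4*, the orosomucoid genes *Orm1* and *Orm2*, *Lcn2* (lipocalin 2), *Hp* (haptoglobin) and the pentraxins *Crp* (C-reactive protein) and *Apcs* (serum amyloid P). They were chosen by gene symbol, and each symbol matched 1 row. All 10 had enough counts to be tested. They were measured by RNA sequencing in 14 livers, 1 library per mouse.

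The mice were male C57BL/6 mice, made obese on a high fat diet (HFD) that began at 6 weeks of age and had been fed for 12 weeks when the mice were allocated. All 3 groups stayed on the HFD. The DIO group (diet-induced obesity, 5 livers) had no surgery, and the labels give 8 weeks for these livers too. The GB-IL group (4 livers) was taken 8 weeks after a gallbladder-to-ileum anastomosis, which sends bile into the distal small bowel, with the common bile duct tied off in the same operation per the study's methods. The RYGB group (5 livers) was taken 8 weeks after Roux-en-Y gastric bypass. No sham-operated and no chow-fed liver is among the 14, so surgery itself and the diversion of bile cannot be told apart in these comparisons.

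Acute phase proteins are secreted by hepatocytes into the blood, and their levels change during infection or injury. Interleukin 6 signals through gp130 and STAT3, and interleukin 1 and TNF signal through NF-κB, while C/EBP factors act with both at the promoters of these genes. Serum amyloid A1 and A2 ride on high density lipoprotein, serum amyloid A3 is also made outside the liver, and serum amyloid A4 is the constitutive member of the family. The orosomucoids bind drugs and lipids, haptoglobin binds free haemoglobin, lipocalin 2 binds bacterial siderophores, and the pentraxins bind microbes and cell debris. In mice serum amyloid P is the responsive pentraxin, and C-reactive protein responds little.

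The 4 serum amyloid A genes lie together on chromosome 7 (GENCODE M21, GRCm38, the authors' mm10 build), from *Saa3* (ENSMUSG00000040026, 46711998 to 46715700, minus strand) past *Saa4* (ENSMUSG00000040017, 46727998 to 46732603, minus) and *Saa1* (ENSMUSG00000074115, 46740497 to 46742980, minus) to *Saa2* (ENSMUSG00000057465, 46751790 to 46754313, plus). The promoters of these neighbours are shown with that of *Lcn2* because the 5 genes ran through the whole range of responses described further on. Each line holds the 250 bases before the RefSeq start (GRCm38.p6), 5′ to 3′ on the strand of the gene, and capitals mark matches to 3 motifs searched on both strands, the κB decamer for NF-κB, TTCNNNGAA for STAT3 and TTNNGNAA for C/EBP.
Saa1, chr7:46742981-46743230, minus strand: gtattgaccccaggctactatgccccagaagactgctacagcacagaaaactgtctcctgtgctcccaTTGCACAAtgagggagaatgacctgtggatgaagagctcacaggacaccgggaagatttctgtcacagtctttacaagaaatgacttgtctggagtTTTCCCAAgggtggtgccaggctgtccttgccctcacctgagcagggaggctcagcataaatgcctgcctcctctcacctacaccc
Saa2, chr7:46751583-46751832, plus strand: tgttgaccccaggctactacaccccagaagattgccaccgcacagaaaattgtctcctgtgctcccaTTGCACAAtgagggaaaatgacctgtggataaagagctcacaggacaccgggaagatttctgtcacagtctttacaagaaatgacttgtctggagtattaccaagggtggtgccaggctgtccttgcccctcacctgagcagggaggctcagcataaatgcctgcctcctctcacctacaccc
Saa3, chr7:46715677-46715926, minus strand: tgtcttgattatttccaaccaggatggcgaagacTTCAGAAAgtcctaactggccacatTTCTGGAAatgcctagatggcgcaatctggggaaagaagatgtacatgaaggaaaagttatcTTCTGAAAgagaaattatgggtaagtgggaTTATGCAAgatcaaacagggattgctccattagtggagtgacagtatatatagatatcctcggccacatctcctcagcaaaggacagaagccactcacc
Saa4, chr7:46732604-46732853, minus strand: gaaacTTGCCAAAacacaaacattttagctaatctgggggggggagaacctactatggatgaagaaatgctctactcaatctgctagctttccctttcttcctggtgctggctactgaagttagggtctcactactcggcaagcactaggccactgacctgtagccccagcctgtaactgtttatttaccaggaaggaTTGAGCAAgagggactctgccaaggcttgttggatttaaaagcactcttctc
Lcn2, chr2:32387740-32387989, minus strand: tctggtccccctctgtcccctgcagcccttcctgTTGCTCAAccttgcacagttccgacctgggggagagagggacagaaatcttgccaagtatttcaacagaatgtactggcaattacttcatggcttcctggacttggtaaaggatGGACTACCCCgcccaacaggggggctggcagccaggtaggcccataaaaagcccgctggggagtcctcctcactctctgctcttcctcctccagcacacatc
The *Saa1* and *Saa2* windows, on opposite strands, were 96.0% identical over 299 aligned bases when the 50 bases after the start were included. *Saa1* shared 61.0% with *Saa3* and 57.1% with *Saa4*. Windows were found for 8 of the 10 genes, *Orm1* and *Hp* being the ones without. The C/EBP letters were in 7 of the 8 windows, against 40.7% of all 32851 windows in the table. Searched on the forward strand alone, they were in 4 of the 8 windows and in 25.4% of all windows. *Orm2* held TTGCGCAA at -120 to -113 and TTTCCCAA at -108 to -101. The NF-κB letters were found in 1 of the 8, *Lcn2*, as GGACTACCCC at -102 to -93 on the reverse strand, and in 19.2% of all windows. The STAT3 letters were found in 1 of the 8, *Apcs*, as TTCTAGGAA at -244 to -236, and in 8.30% of all windows. No match overlapped another. The RefSeq starts lie inside the GENCODE genes for *Saa2*, *Saa3* and *Lcn2*. These matches describe the letters of the windows and not the binding of a factor.

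Levels are CPM, the usual depth-scaled read count, with each total scaled by TMM, edgeR's trimmed mean of M-values. The livers held 18223135 to 28656631 counts, and the lowest count of any of the 10 genes was 63, for *Saa3* in RYGB liver 4. GB-IL liver 4 stood apart from the rest of its group: on the first principal component (48.5% of the variance of all genes) it lay at -35.3, among the DIO livers at -45.7 to -21.9, whereas GB-IL livers 1, 2 and 3 lay at 134, 106 and 20.1. Hepatocyte markers summed to 126980 to 159720 CPM in DIO, 102140 to 130470 CPM in GB-IL and 123430 to 143700 CPM in RYGB, none of them at 0. The labels name 2 library kits without saying which liver had which, so kit and group cannot be told apart.

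In GB-IL livers 8 of the 10 genes rose compared with DIO at a false discovery rate (FDR) of 0.05, by 2.19 (*Hp*) to 6.30 (*Lcn2*) on the log2 scale. The background was 3.15% of the 14252 genes tested called higher and 0.112% called lower. *Saa4* and *Crp* did not pass the test, and no member fell. At an unadjusted p below 0.05 the same 8 were higher, against 16.7% of all genes. Across the 10 genes the log2 differences had a median of 3.60, beside 0.04 for all genes tested. No gene of the 10 had every GB-IL liver above every DIO liver. For the 8 called genes GB-IL livers 1, 2 and 3 were above every DIO liver and GB-IL liver 4 was not, whereas for *Saa4* and *Crp* livers 1, 2 and 3 themselves lay on both sides of the DIO range. By comparison, 2.64% of all genes had every GB-IL liver above every DIO liver.

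**Figure D1:**
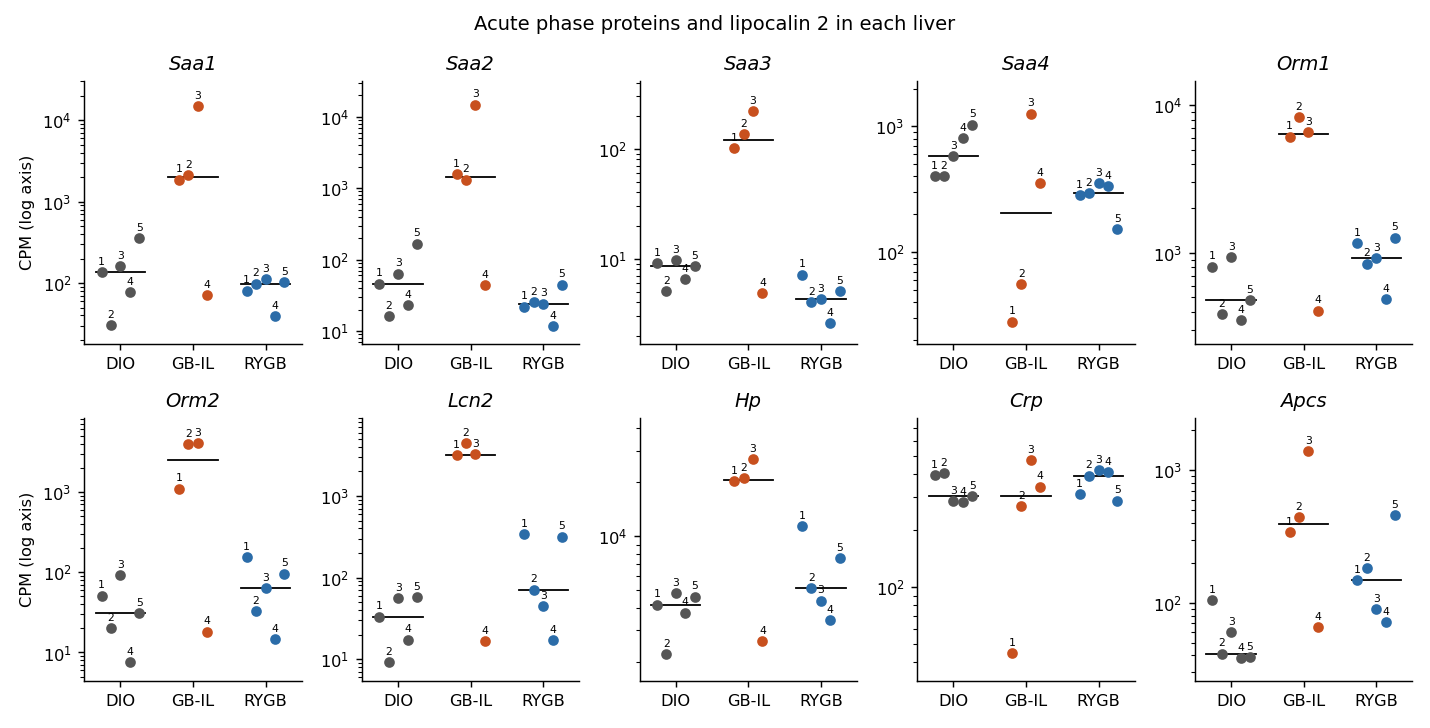
CPM of each gene in each liver (log axis), with points numbered by liver and the median of each group as a line. For *Saa1*, *Saa2*, *Saa3*, *Orm1*, *Orm2*, *Lcn2*, *Hp* and *Apcs*, GB-IL livers 1 to 3 lie above every DIO liver and GB-IL liver 4 lies near the DIO livers.

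*Saa1* had 135, 30.2, 161, 77.5 and 357 CPM in DIO livers 1 to 5. In GB-IL livers 1 to 4 it had 1872, 2107, 14844 and 71.6 CPM. GB-IL livers 1, 2 and 3 were 13.9, 15.6 and 110.0 times the DIO median, and liver 4 was 0.531 times. Its fitted log2 difference from DIO was 4.96 (SE 1.05, adjusted p = 0.0297, edgeR). Without GB-IL liver 3, which held the highest level, the log2 fold change of *Saa1* was 3.16 (adjusted p = 0.0465, edgeR).

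*Saa2* had 46.1, 16.4, 63.8, 23.4 and 168 CPM in the DIO livers, and 1587, 1319, 14727 and 43.6 CPM in the GB-IL livers. Liver 3 of GB-IL again stood far above livers 1 and 2 of its group, at 319 times the DIO median. On the log2 scale the fit gave 6.12 (SE 1.19, adjusted p = 0.0278, edgeR), and 3.96 without GB-IL liver 3 (adjusted p = 0.0324). The ratio of *Saa2* to *Saa1* was 0.301 to 0.542 in DIO, 0.214 to 0.436 in RYGB and 0.848, 0.626, 0.992 and 0.6097 in GB-IL livers 1 to 4, so that all 4 GB-IL livers, liver 4 included, lay above every liver of the other groups. The principal transcripts of these 2 genes are 94.4% identical over 606 aligned bases, and 9.11% of the 50-base windows of *Saa1* occur in *Saa2*, so reads could have been divided between them in the counting. With their counts summed the log2 fold change was 5.41 (SE 1.10, adjusted p = 0.0280, edgeR).

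*Saa3* had the lowest median CPM of the 10 genes in every group, though in GB-IL livers 1 and 2 it was above *Saa4*. Its DIO livers had 9.15, 5.06, 9.66, 6.56 and 8.60 CPM, and its GB-IL livers had 101, 137, 220.3 and 4.83 CPM. It was also the gene that varied least among the DIO livers of the rising serum amyloid genes, with a highest over lowest value of 1.91 against 11.8 for *Saa1* and 10.3 for *Saa2*. The fitted difference came to log2 3.89 (SE 0.66, adjusted p = 0.0278, edgeR), and *Saa3* had the smallest unadjusted p of the 10 genes, 3.2e-05.

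*Saa4*, the constitutive member, did not move with its neighbours. It had 403, 402, 583, 809 and 1033 CPM in DIO, and 28.0, 55.2, 1264 and 354.44 CPM in GB-IL. GB-IL livers 1 and 2 thus lay at 0.05 and 0.09 times the DIO median, in the livers where *Saa1* and *Saa2* were high, and GB-IL liver 3 lay above every DIO liver. In the edgeR fit the log2 difference was -0.60 (SE 0.77, adjusted p = 0.631, edgeR). Without GB-IL liver 3 it was -2.15 (adjusted p = 0.0821, edgeR). The ratio of *Saa4* to *Saa1* was 2.89 to 13.3 in DIO and 0.0149, 0.0262, 0.0852 and 4.95 in GB-IL livers 1 to 4.

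The orosomucoid genes lie on the plus strand of chromosome 4, *Orm1* (ENSMUSG00000039196) at 63344560 to 63348163, *Orm3* (ENSMUSG00000028359) at 63356162 to 63359511 and *Orm2* (ENSMUSG00000061540) at 63362449 to 63365878. *Orm1* had 808, 387, 937, 353 and 478 CPM in DIO, and 6140.3, 8306, 6599 and 406 CPM in GB-IL. Livers 1, 2 and 3 of GB-IL were close to each other here, at 12.8, 17.4 and 13.8 times the DIO median, without the gap between liver 3 and the others seen for *Saa1*. Against DIO it differed by log2 3.18 (SE 0.61, adjusted p = 0.0278, edgeR).

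*Orm2* started from lower levels and spread more. Its DIO livers had 51.3, 19.962, 91.7, 7.58 and 31.03 CPM, and its GB-IL livers had 1098, 3927, 4087 and 18.2 CPM. The estimate on the log2 scale was 5.83 (SE 1.15, adjusted p = 0.0278, edgeR). The ratio of *Orm2* to *Orm1* was 0.0215 to 0.0978 in DIO and 0.179, 0.473, 0.619 and 0.0447 in GB-IL livers 1 to 4, so in this ratio too GB-IL livers 1, 2 and 3 exceeded the DIO range. The transcripts of *Orm1* and *Orm2* are 91.0% identical and 20.4% of the 50-base windows of *Orm1* occur in *Orm2*, so these values are uncertain to the extent that reads were divided between them. *Orm3*, 86.5% identical to *Orm1*, had 3.73 to 35.1 CPM in DIO and 83.8, 69.9, 187 and 4.13 CPM in GB-IL, at a log2 fold change of 2.71 (SE 0.88, adjusted p = 0.0975, edgeR). With the counts of all 3 summed the log2 fold change was 3.58 (SE 0.67, adjusted p = 0.0280, edgeR).

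*Lcn2* (ENSMUSG00000026822, chromosome 2, 32384633 to 32388252, minus strand) had the largest fitted rise of the 10 genes in the edgeR fit of all livers, though *Saa2* (log2 6.39 against 5.94 without GB-IL liver 2, and likewise without GB-IL liver 1 or DIO liver 5) or *Orm2* (5.66 against 5.17 with voom) was ahead in other fits. It had 33.3, 9.19, 55.9, 17.3 and 57.9 CPM in DIO, and 3155, 4460.3, 3297 and 16.6 CPM in GB-IL. GB-IL livers 1, 2 and 3 were 94.8, 134.1 and 99.1 times the DIO median, and GB-IL liver 4 was 0.499 times, below 4 of the 5 DIO livers. Its fitted log2 difference from DIO was 6.30 (SE 1.23, adjusted p = 0.0278, edgeR).

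*Lcn2* is also stored in the granules of neutrophils, and neutrophil markers moved with it. Of 13 markers 8 could be tested, all 8 were higher in GB-IL than in DIO and 5 of them were called. Their summed level was 3.39 to 6.85 CPM in DIO, with *Ly6g* and *Ctsg* at 0 in every DIO liver, and 114, 62.3, 543 and 2.95 CPM in GB-IL livers 1 to 4. In GB-IL liver 1 the granule genes *Ltf* and *Ngp* had 1.20 and 3.96 CPM, and in GB-IL liver 2 they had 0.564 and 1.13 CPM, beside the 3155 and 4460.3 CPM of *Lcn2*. In GB-IL liver 3 they had 58.1 and 86.1 CPM. Larger parts of the sums in livers 1 and 2 came from *S100a8* (34.5 and 14.2 CPM, at most 1.57 CPM in DIO) and *S100a9* (51.3 and 21.3 CPM, at most 2.41 CPM in DIO). *Ltf*, *Ngp*, *Retnlg*, *Mmp8*, *S100a8* and *S100a9* were named after their values had been seen. Among these 3 livers *Lcn2* was highest in GB-IL liver 2, and the sum of neutrophil markers was highest in GB-IL liver 3 and lowest in GB-IL liver 2. The part of neutrophils in the level of *Lcn2* was not tested.

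Macrophage and cholangiocyte markers were higher in GB-IL as well. Summed cholangiocyte markers had the pattern of the 8 genes, above every DIO liver in GB-IL livers 1, 2 and 3 but not in liver 4. Summed macrophage markers were above every DIO liver in all 4 GB-IL livers. Macrophage markers (11 of 12 tested, 11 higher, 5 called) summed to 548 to 973 CPM in DIO and to 1067, 1751, 2873 and 1032 CPM in GB-IL livers 1 to 4, with none at 0. GB-IL livers 1 and 4 thus had nearly the same sum. Although the fit put all 11 higher, *Timd4* had 2.45 and 3.10 CPM in GB-IL livers 1 and 2 (5.76 to 13.96 CPM in DIO). In GB-IL liver 1 *Clec4f* (41.9 CPM) and *Cd5l* (64.4 CPM) were also below every DIO liver. *Cd68*, *C1qa*, *C1qb* and *C1qc* instead had the pattern of the 8 genes over the livers. *Cd68* had 37.8, 46.0, 40.4 and 17.3 CPM in GB-IL livers 1 to 4 and 10.7 to 19.3 CPM in DIO. *Lyz2* and *Marco* were above every DIO liver in each GB-IL liver. *Csf1r* and *Vsig4* were so in GB-IL livers 2, 3 and 4. Cholangiocyte markers (7 of 9 tested, 7 higher, 4 called) summed to 31.4 to 66.9 CPM in DIO and to 324, 269, 220.5 and 59.5 CPM in GB-IL livers 1 to 4, with none at 0. Most of each sum was *Spp1*, at 25.1 to 55.3 CPM in DIO and 284, 215, 204 and 49.5 CPM in GB-IL. In GB-IL liver 3 *Epcam* (1.61 CPM) and *Sox9* (6.14 CPM) lay within the DIO range, and *Krt19* (3.39 CPM) lay above it. The single macrophage markers and *Spp1*, *Epcam*, *Sox9* and *Krt19* were named after their values had been seen. GB-IL liver 4 was above every DIO liver for the macrophage markers, within the DIO range for the cholangiocyte markers and below every DIO liver for the neutrophil markers. The part of these cells in the results was not tested. In such bulk samples a change in the number of cells of a type and a change in RNA per cell cannot be told apart.

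**Figure D2:**
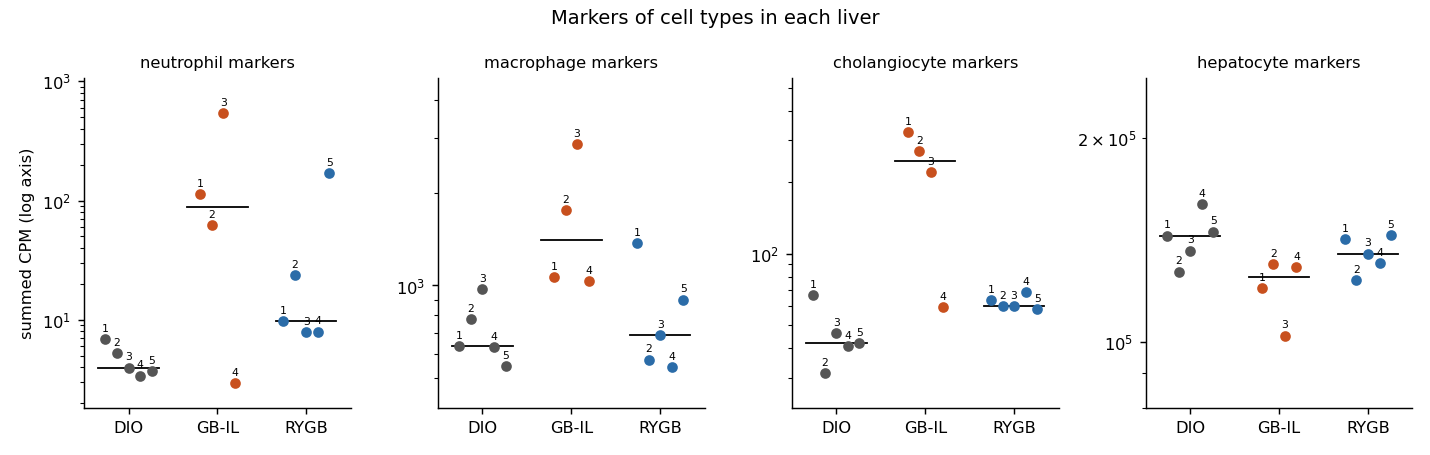
Summed CPM of the neutrophil, macrophage, cholangiocyte and hepatocyte markers in each liver (log axes), with points numbered by liver and group medians as lines. GB-IL livers 1 to 3 lie above every DIO liver for the first 3 lists, and RYGB liver 5 reaches 169 CPM for the neutrophil markers.

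*Hp* (ENSMUSG00000031722, chromosome 8, 109575128 to 109579172, minus strand) was the most abundant of the 10 genes in every group. It had 4164, 2211, 4802, 3753 and 4605 CPM in DIO, and 20348, 21104, 26975 and 2596 CPM in GB-IL. GB-IL livers 1, 2 and 3 reached 4.89, 5.07 and 6.48 times the DIO median, the smallest fitted rise of the 8 called genes. On the log2 scale the fit gave 2.19 (SE 0.53, adjusted p = 0.0375, edgeR). Of the 8 called genes *Hp* had the highest adjusted p, which was 0.0594 without GB-IL liver 3, 0.0508 without RYGB liver 2 and 0.0519 without RYGB liver 3.

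The pentraxins parted ways. *Apcs* (ENSMUSG00000026542, chromosome 1, 172893961 to 172895041, minus strand) had 105, 41.3, 60.2, 38.5 and 38.7 CPM in DIO, and 342, 444, 1388 and 65.1 CPM in GB-IL. The fitted difference came to log2 3.31 (SE 0.72, adjusted p = 0.0310, edgeR), and 2.33 without GB-IL liver 3 (adjusted p = 0.0526). *Crp* (ENSMUSG00000037942, chromosome 1, 172698055 to 172833031, plus strand, overlapping 1 other annotated gene) had 393, 405, 287, 283 and 304 CPM in DIO, and 44.5, 269, 471 and 342 CPM in GB-IL. *Crp* had the narrowest DIO spread of the 10 genes, a highest over lowest value of 1.43, and a log2 fold change of -0.25 (SE 0.43, adjusted p = 0.733, edgeR). Without GB-IL liver 1, the lowest of the 14, its log2 fold change was 0.10.

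Each call depended on which livers were fitted. Without GB-IL liver 4 the same 8 genes were called, against 15.4% of all genes called higher, at adjusted p of 3.2e-05 (*Saa3*) to 0.00153 (*Apcs*). Without GB-IL liver 3, 6 were called against 3.74% of all genes, *Hp* and *Apcs* being lost. When any 1 of the DIO livers, or either of GB-IL livers 1 and 2, was left out, 0 were called, as were 0.0% of all genes, and the 8 had adjusted p of 0.0581 to 0.0993, while all 8 kept an unadjusted p below 0.05 (edgeR). Limma's voom with sample quality weights called 4 (*Saa3*, *Orm1*, *Orm2* and *Apcs*) against 3.58% of all genes. In these omissions and tests the 8 genes remained higher in GB-IL.

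**Figure D3:**
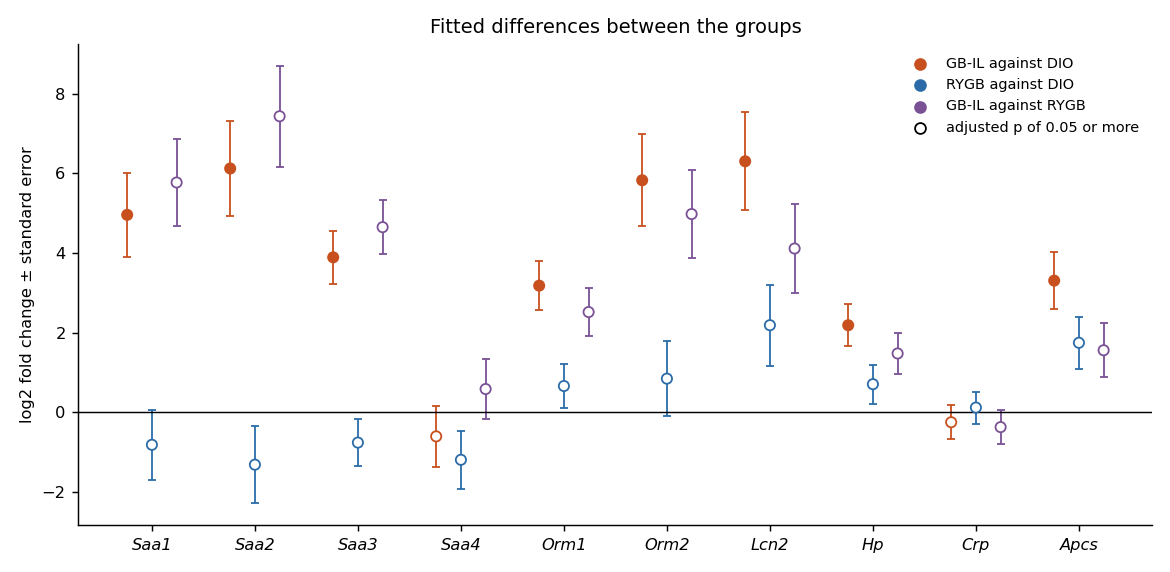
Log2 fold change with its SE for each gene in the 3 comparisons (edgeR quasi-likelihood fit of 14 livers), filled where the adjusted p is below 0.05. In GB-IL against DIO 8 genes are filled, between 2.19 and 6.30, and in the other comparisons 0 are.

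In RYGB livers 0 of the 10 genes were called against DIO, as were 0.0% of all genes tested. In the fit of all livers *Lcn2* and *Apcs* were higher at an unadjusted p below 0.05, 2 of 10 against 5.35% of all genes. In that fit 0 were lower, against 3.36%. The median log2 fold change of the 10 was 0.39, with 6 above 0 and 4 below, and that of all genes was 0.01. With only the DIO and RYGB livers fitted, 6 of the 10 had an unadjusted p below 0.05 (edgeR), beside 2328 of 13627 genes. *Saa2*, *Saa3* and *Saa4* were lower (unadjusted p = 0.0359, 0.0121 and 0.00179, edgeR), and *Lcn2*, *Hp* and *Apcs* were higher. In that fit 0 of the 10 were called, against 0.242% of all genes. DESeq2 called 0 of the 10 (0.684% of all genes), and voom with sample quality weights called *Apcs* (adjusted p = 0.0398) and *Saa4* (adjusted p = 0.0484) where it called 11.9% of all genes.

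*Lcn2* had 341, 71.0, 44.4, 17.2 and 318 CPM in RYGB livers 1 to 5. Livers 1 and 5 were thus 10.2 and 9.56 times the DIO median, and livers 3 and 4 lay within the DIO range. In the edgeR fit the log2 difference was 2.19 (SE 1.01, unadjusted p = 0.0473, adjusted p = 0.571, edgeR). It was 1.70 without RYGB liver 1, 1.77 without RYGB liver 5 and 0.64 with voom and sample quality weights (unadjusted p = 0.392). The summed neutrophil markers were 9.78 CPM in RYGB liver 1 and 169 CPM in RYGB liver 5, so the 2 livers with like *Lcn2* levels differed in these markers. Over the 5 RYGB livers the sum was 7.81 to 169 CPM, above the 3.39 to 6.85 CPM of the DIO livers. All 8 tested neutrophil markers were higher in RYGB than in DIO, against 51.5% of all genes, and 0 were called. Each was highest in liver 5 among the RYGB livers. *Ngp* and *Ltf* had 33.6 and 17.7 CPM there, and at most 0.352 and 0.273 CPM in RYGB livers 1 to 4. *Retnlg* had at most 0.437 CPM in RYGB livers 1 to 4, and up to 0.492 CPM in DIO. Of the 23.8 CPM of RYGB liver 2, 19.8 CPM were *Prtn3*. These 4 genes were named after their values had been seen. Summed macrophage markers were 1375 and 899.7 CPM in livers 1 and 5, the highest 2 of the group, and 545 to 689 CPM in the other RYGB livers. The part of either list in the result was not tested.

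*Apcs* had 149, 183, 89.3, 71.7 and 458 CPM in RYGB, with 3 of 5 livers above every DIO liver. The log2 estimate was 1.75 (SE 0.66, unadjusted p = 0.0182, adjusted p = 0.507, edgeR) and 1.12 without RYGB liver 5. *Hp* had 11412, 5145, 4383, 3399 and 7583 CPM, again with 3 of 5 livers above every DIO liver, at a log2 fold change of 0.71 (SE 0.49, adjusted p = 0.711, edgeR). RYGB livers 1 and 5 were the 2 highest of their group for *Lcn2*, *Hp*, *Orm1* (1169 and 1271 CPM, against 486 to 918 CPM in the other RYGB livers) and *Orm2* (156 and 96.3 CPM, against 14.6 to 63.2 CPM).

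No serum amyloid A gene was above the DIO range in those livers. *Saa1* had 80.6, 98.2, 113, 39.1 and 103 CPM in RYGB, all within the DIO range, with a log2 fold change of -0.81 (SE 0.88, adjusted p = 0.830, edgeR). *Saa2* had 11.7 to 44.8 CPM and *Saa3* 2.60 to 7.16 CPM. *Saa4* had 283, 294, 354.03, 334 and 152 CPM, so that every RYGB liver was below every DIO liver, a pattern found for 1.66% of all genes. Its log2 fold change was -1.19 (SE 0.72, adjusted p = 0.671, edgeR). *Crp* had 312, 392, 419, 409 and 288 CPM and a log2 fold change of 0.12 (SE 0.40).

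Compared directly, GB-IL and RYGB gave 0 of the 10 genes past the FDR, as did 0.0% of all genes, although 8 were higher in GB-IL at an unadjusted p below 0.05 against 15.3% of all genes. The highest estimates were those of *Saa2* (log2 7.43, SE 1.27), *Saa1* (5.77, SE 1.09), *Orm2* (4.98, SE 1.11) and *Saa3* (4.65, SE 0.69), at an adjusted p by edgeR of 0.0792 for *Orm2* and 0.0552 for the other 3. The estimate was 4.11 for *Lcn2* (adjusted p = 0.0948) and 1.56 for *Apcs* (adjusted p = 0.204). Of other tests DESeq2 called 7 of the 10 higher in GB-IL (4.61% of all genes), edgeR's exact test 6 (3.99%), voom with sample quality weights 2 (0.779%) and the edgeR fit without a filter on low counts 3 (0.199%). Without GB-IL liver 3 the main test called 2 (0.159% of all genes), and without GB-IL liver 4 it called 8 (13.4% of all genes). The 2 comparisons with DIO share the same 5 control livers, so their values stand side by side and were not correlated.

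Summed, the 10 genes made up 0.374% to 0.687% of all counts of a DIO liver (0.573 ± 0.132%, SD, n = 5). In GB-IL livers 1 to 4 they made up 3.27%, 3.88%, 6.97% and 0.407%. In RYGB they made up 1.40%, 0.754%, 0.636%, 0.501% and 1.16%. *Hp* held 62.7% to 69.9% of the sum in DIO and 36.5% in GB-IL liver 3, where *Saa1* and *Saa2* took the largest part of the increase. Scaled by TMM in place of the total, the 3 highest shares were 3.47%, 4.21% and 7.39%.

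**Figure D4:**
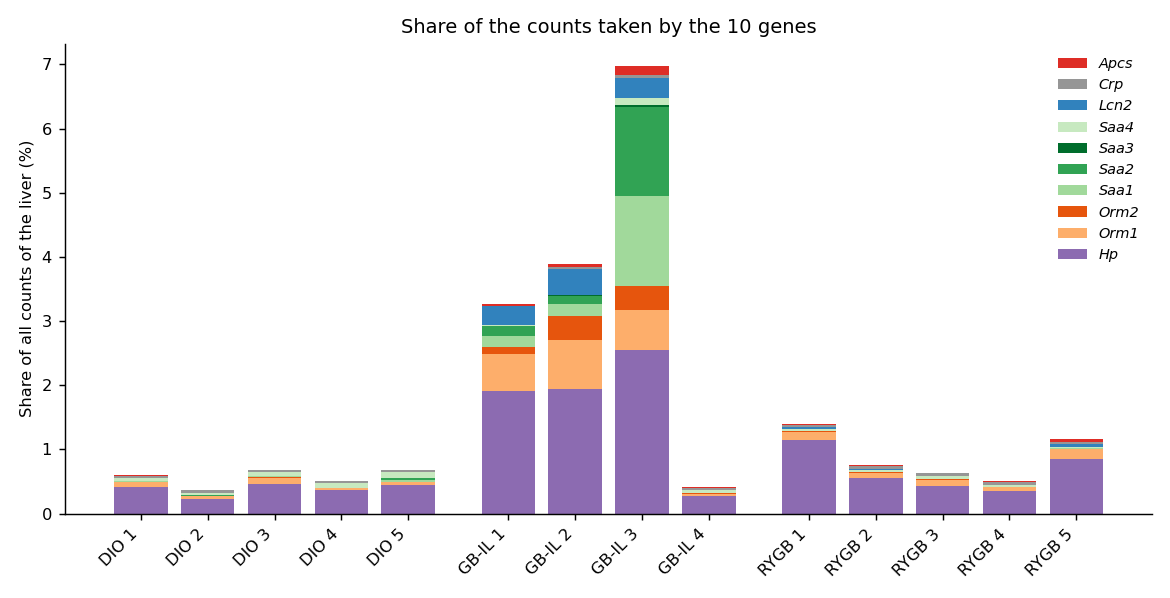
Stacked share of each liver's total count taken by the 10 genes, in percent, from 0. DIO livers reach at most 0.687%, GB-IL liver 3 reaches 6.97%, and RYGB livers 1 and 5 reach 1.40% and 1.16%.

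Per kilobase of the principal transcript, the order of median levels in DIO was *Hp* (3096 CPM per kb), *Orm1* (617), *Saa4* (278), *Saa1* (222), *Crp* (179), *Saa2* (70.8), *Apcs* (42.5), *Orm2* (40.0), *Lcn2* (36.4) and *Saa3* (15.5). *Hp* lay above every other member in each DIO liver, with 1644 to 3570.2 CPM per kb. From *Orm1* downwards the ranges over DIO livers overlapped between most neighbours, as for *Orm1* (455 to 1210 CPM per kb) and *Saa4* (192 to 494), *Saa1* (49.6 to 587) and *Crp* (167 to 239), or *Orm2* (9.78 to 118) and *Lcn2* (10.05 to 63.3). In GB-IL the order of medians was *Hp* (15410 CPM per kb), *Orm1* (8219), *Lcn2* (3525), *Saa1* (3267), *Orm2* (3242), *Saa2* (2229), *Apcs* (405), *Saa3* (214), *Crp* (180.2) and *Saa4* (97.8). Among 17888 genes ranked by CPM per kb within GB-IL liver 3, *Saa1* was in place 2, *Saa2* in place 3, *Hp* in place 4 and *Orm1* in place 8. In the DIO livers *Saa1* was in places 116 to 1065. The transcripts used were 609 bases long for *Saa1*, 652 for *Saa2* and 2094 for *Saa4*.

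Other acute phase genes were taken from lists of well-known members. Of 35 positive acute phase genes outside the 10, all tested, 28 were higher in GB-IL than in DIO, 7 were called higher and 0 lower, and their median log2 fold change was 1.27. Of all genes tested 53.1% were higher and, as above, 3.15% called higher, the background for every list in GB-IL against DIO. *Cd14*, the endotoxin co-receptor, had 3.77 to 5.56 CPM in DIO and 489, 145, 57.6 and 5.57 CPM in GB-IL, with a log2 fold change of 5.22 (adjusted p = 0.0278, edgeR). *Hpx*, which binds haem, had 2594 to 5182 CPM in DIO and 22847, 38177, 26073 and 3657 CPM in GB-IL (log2 fold change 2.54, adjusted p = 0.0278). *Il1rn*, the interleukin 1 receptor antagonist, and the protease inhibitor *Serpina3n* rose by 2.18 and 2.37 on the log2 scale (adjusted p = 0.0314 and 0.0340). The other 3 called, named after their values had been seen, were *Cp*, *Itih3* and *Fgb*. In RYGB 0 of the 35 were called and their median was 0.02.

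**Figure D5:**
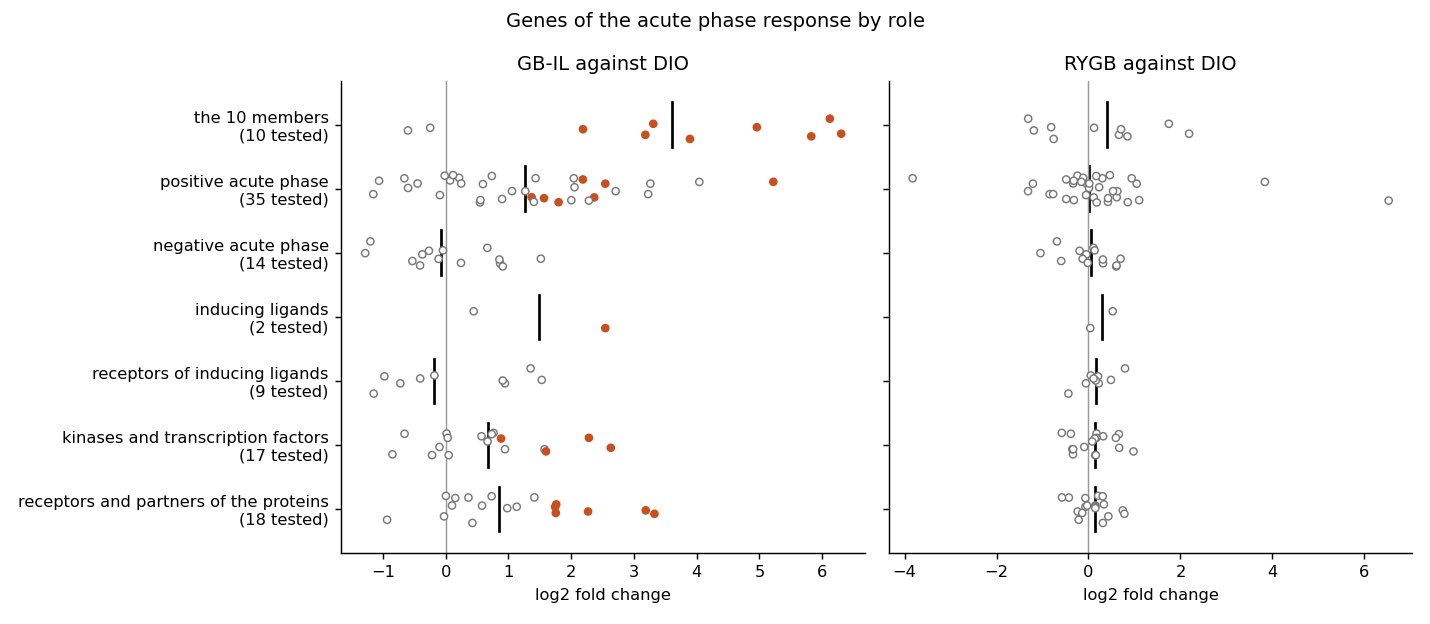
Log2 fold change of each tested gene by list, in GB-IL against DIO (left) and RYGB against DIO (right), filled where the adjusted p is below 0.05, with the median of each list as a black line and vertical jitter for visibility only. The 10 genes have the highest median in GB-IL against DIO, 3.60, and 0 genes are filled in RYGB against DIO.

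Negative acute phase genes, whose products fall in plasma during inflammation, did not pass the test. Of 14, all tested, 0 were called in GB-IL, 8 were lower and 6 higher, with a median log2 fold change of -0.08. *Ttr* (transthyretin) had 5691 to 9288 CPM in DIO and 1593, 2183, 3738 and 6009.9 CPM in GB-IL (log2 fold change -1.20, adjusted p = 0.0816, edgeR). *Trf* (transferrin) had 2190 to 3714 CPM in DIO and 5385, 14771, 11804 and 2394 CPM in GB-IL (log2 fold change 1.52, adjusted p = 0.0838, edgeR). The 2 genes of this list with the smallest p-values thus had opposite signs.

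Of 8 inducing ligands 7 were in the table and 2 had enough counts to be tested. *Il1b* had 1.46 to 2.85 CPM in DIO and 13.8, 19.9, 11.99 and 3.06 CPM in GB-IL, differing by log2 2.54 (adjusted p = 0.0278, edgeR), with no overlap between the GB-IL and DIO livers. *Il6* had 0.0 to 0.208 CPM over the 14 livers and was not tested. Of the 9 receptors of these ligands 0 were called. *Tnfrsf1a* had 74.4 to 97.2 CPM in DIO and 171, 226, 158 and 73.1 CPM in GB-IL (log2 fold change 0.91, adjusted p = 0.0535, edgeR), and *Osmr*, the oncostatin M receptor was at log2 1.53 (adjusted p = 0.0582).

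Of 17 kinases and transcription factors downstream of these receptors 4 were called higher in GB-IL and 0 lower. *Socs3*, the feedback inhibitor induced by STAT3, had 8.85 to 17.967 CPM in DIO and 163, 73.5, 44.6 and 4.79 CPM in GB-IL (log2 fold change 2.63, adjusted p = 0.0383, edgeR). The NF-κB subunits *Relb* and *Nfkb2* rose by 2.28 and 0.88 on the log2 scale (adjusted p = 0.0278 and 0.0390), and the NF-κB cofactor *Nfkbiz* by 1.60 (adjusted p = 0.0437). Of 18 receptors and partners of the secreted proteins 6 were called higher and 0 lower. Among them were *Fpr2*, a receptor of serum amyloid A (log2 fold change 2.27, adjusted p = 0.0278), *Mmp9*, which forms a complex with lipocalin 2 (3.19, adjusted p = 0.0310), *Fcgr3*, an Fc receptor that binds pentraxins (1.75, adjusted p = 0.0310) and *Tlr2* (1.74, adjusted p = 0.0343). The other 2, named after their values had been seen, were *Hmox1* and *Ager*. In RYGB 0 genes of any of these lists were called.

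Over the 14 livers, the genes outside the 10 whose log2 CPM ordered the livers most like a member were compared by Spearman's rho among 12683 genes with a mean of at least 1 CPM. They were *Gla*, *Llph-ps2* and *Hars* for *Saa1* (rho 0.886 to 0.873), and *H2-D1*, *Fdx1l* and *Ubb* for *Saa3* (0.934 to 0.916). For *Orm2* they were *Tmem176b*, *Rps27a-ps2* and *Rps3a1* (0.925 to 0.908). For *Lcn2* they were *Rps26-ps1*, *Rplp2* and *Necap2* (0.947 to 0.934), and for *Hp* they were *Kat5*, *Trf* and *Necap2* (0.952 to 0.943). With the group means removed, Pearson's r of these pairs was 0.617 to 0.935. The livers fall into separate clusters, with GB-IL livers 1 to 3 at the top of each order, so these values describe this set of livers and carry no p.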

How the data were processed

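Liver RNA was sequenced from 14 mice, 1 library each (5 DIO, 4 GB-IL, 5 RYGB). TopHat 2 (alignment to mm10) and HTSeq (gene counts) were used by the authors, and the deposited table holds whole-number counts, not normalized. Which annotation and strand option they used is not stated in those methods, which also describe amplification of the RNA, so counts are not independent molecules. Totals of 18223135 to 28656631 counts per liver set the precision.

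Genes with too few counts were removed (filterByExpr by group), leaving 14252. Counts were scaled by TMM and tested with edgeR 4.0.16 (quasi-likelihood, R 4.3.3) in 1 fit of all livers, with Benjamini-Hochberg adjustment over all genes tested and an FDR of 0.05. Standard errors are the fold change divided by the square root of F. In the main fit each p sets a difference against a spread between livers estimated over all 3 groups. The p of RYGB against DIO thus also draws on the GB-IL livers. The common biological coefficient of variation (spread relative to the mean) was 0.234 in DIO, 0.490 in GB-IL and 0.275 in RYGB. DESeq2 1.42.0, limma 3.58.1 (voom), edgeR's exact test, other scalings and filters, 2 groups only, a replicate block, summed copies and the omission of each liver were the alternatives. The procedure was tested on simulated data.

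The 10 genes and all lists were chosen with earlier results of these data known. From each list up to 4 called genes of smallest p are named or, where none was called, the 2 of smallest p in GB-IL against DIO, apart from those said to be named after their values had been seen. Similar genes are the 3 of highest rho, on log2(CPM + 0.1).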

Additional observations from a re-analysis of the deposited data

Results flagged for a closer look

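In 4 of 30 sets of livers (10 genes in 3 groups, log2 CPM), 1 liver lay far from the rest by Dixon's 95% criterion, which chance meets in about 1 in 20 groups. GB-IL liver 4 was the liver far below its group for *Orm1* (406 CPM, gap over range 0.900), *Lcn2* (16.6 CPM, 0.938) and *Hp* (2596 CPM, 0.880). RYGB liver 5 was far below its group for *Saa4* (152 CPM, 0.734). The causes were not tested.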

How the results depend on the processing

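In GB-IL against DIO the count of 8 genes called became 4 with voom and sample quality weights, 0 with only the 2 groups compared (0.0% of all genes; adjusted p of the 8 from 0.0844 to 0.107) and 0 to 8 when 1 liver at a time was left out. With the replicate number as a block it became 0 (1 of 14252 genes called; adjusted p from 0.0679 to 0.111), but the numbers do not pair the livers: of 13 same-numbered pairs 2 had a correlation over 0.1, and 1 liver correlated best with its own number. Other scalings and filters (2.12% to 3.75% of all genes called in either direction), DESeq2 (9.11%) and the exact test (7.92%) gave 8. In RYGB against DIO voom called 2. In GB-IL against RYGB the count of 0 became 7 with DESeq2, 6 with the exact test, 3 with no filter, 2 with voom and 0 to 8 when 1 liver was left out. Reversed were *Crp* in GB-IL against DIO (0.095 with voom, 0.098 without GB-IL liver 1) and *Saa4* in GB-IL against RYGB (-0.421 with the replicate block, -0.961 without GB-IL liver 3), none of them called. With 1 liver at a time left out these 2 values ranged from -0.611 to 0.098 and from -0.961 to 0.95. Searched on the forward strand alone, NF-κB letters were in 0 and C/EBP letters in 4 of the 8 windows found for the 10 genes. Of single-gene values, 178 in GB-IL against DIO kept direction and side of the threshold and 80 lost the threshold. The cause was not tested.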
